A study of Mus musculus with 6 samples.

Results

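The genes described here are the Wnt signalling genes of a mouse transcriptome, 62 of the 24970 rows of a table of gene levels. They were taken by symbol: the Wnt ligands, the Frizzled (Fzd), secreted Frizzled-related (Sfrp), Dickkopf (Dkk), R-spondin (Rspo) and Dishevelled (Dvl) families, Tcf7 with Tcf7l1 and Tcf7l2, and 15 single genes from Lrp5 to Wls. All 62 symbols that the rule takes in the reference have a row. RNA was sequenced from primary vascular smooth muscle cells, which form the muscular layer of arteries, isolated with collagenase from C57BL/6 male mice that the protocol writes as 12*6-week-old. One group was transfected for 48 h with 20 nM siRNA against Pfkfb3 (siPfkfb3, 3 samples) and the other with a scrambled siRNA (siScrambled, 3 samples), both with Lipofectamine RNAiMAX and both in medium with 10% serum. Such a duplex makes the cell cut the mRNA that it matches. The labels do not say whether cells of several mice were pooled or whether the samples of a group are separate isolations. The p-values therefore rest on the spread of these 6 samples, and that spread may be technical. In the genotype field, siPfkfb3 replicate 2 carries the name PFKFB4 and replicate 3 the name PFKFB5. Their titles name PFKFB3, and the titles were followed.

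Pfkfb3, the targeted gene, makes an activator of glycolysis. It stood at 1.92, 1.65 and 1.77 FPKM in siPfkfb3, against 4.03, 4.02 and 3.86 FPKM in siScrambled, a mean of 44.9% of the siScrambled mean (log2 fold change −0.84 ± 0.07 SE, adjusted p = 2.66e-05). All 3 siPfkfb3 samples lay under all siScrambled samples, replicates 2 and 3 included. An exact permutation of the samples, two-sided, gave p = 0.1, which is the smallest that 3 against 3 samples allow. Pfkfb4 had 1.95, 1.49 and 1.53 FPKM in siPfkfb3, against 1.58, 1.96 and 2.10 FPKM in siScrambled (log2 fold change −0.12, adjusted p = 0.417). Its siPfkfb3 replicates 2 and 3 lay under all siScrambled samples, while replicate 1 did not. Whether the siRNA differed between the replicates was not tested. Levels are in FPKM, which divides fragments by the length of the gene and the size of the library, so the number of reads behind a value is unknown. The commonest value among rows of unannotated genes put the libraries within a factor of 1.24 in depth, a rough estimate. The log2 fold changes below are siPfkfb3 minus siScrambled on log2(FPKM + 1), which understates the changes of low genes. The word called is used for a Benjamini-Hochberg adjusted p under 0.05 in limma's test over the 11240 genes whose mean reached 1 FPKM.

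Wnt proteins are lipid-modified secreted signals. They bind a Frizzled receptor together with a co-receptor. With Lrp5 or Lrp6 the signal passes through Dishevelled to halt a destruction complex built on Axin and Apc, so that beta-catenin reaches the nucleus and acts with factors of the Tcf family. With Ror receptors it acts on cell polarity and movement instead. Sfrp proteins, Frzb and Wif1 bind Wnt outside the cell, Dkk proteins act on Lrp, and R-spondins raise the number of receptors at the surface. In the arterial wall, Wnt signalling is known for its part in smooth muscle growth, migration and calcification.

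Of the 62 members, 33 reached a mean of 1 FPKM over the 6 samples and were tested. The largest change was in Sfrp2, whose siPfkfb3 mean was 49.7% of the siScrambled mean. Fzd6, Rspo3, Fzd5 and Wnt16 rose by 0.41 to 0.72 on the log2 scale, and the co-receptors Lrp6 and Ror1 by about 0.3. In all, 13 members rose, 6 fell and 14 were not called. The rises made up 39.4% of the tested members, against 15.8% of all tested genes called higher. The falls made up 18.2%, against 20.5% of all tested genes called lower. After rescaling the libraries to a common total (TPM), 14 members were called higher and 3 lower. The same 14 and 3 came from a weighted trimmed mean of ratios (TMM), while its unweighted form, chosen after seeing the data, gave 13 and 5. These scalings also shifted the calls over all tested genes, to 1950 higher and 2038 lower under TPM and 2062 higher and 2001 lower under weighted TMM, against 1775 and 2304 for the levels as deposited. The median log2 fold change of the tested members was 0.08, against −0.02 for all tested genes. Among called genes the median absolute log2 fold change was 0.25 for members and 0.31 for all genes. In 23 of the 33 tested members (69.7%) the groups were fully apart, against 49.5% of all tested genes. Of the 33 tested members, 15 were fully apart and higher in siPfkfb3 and 8 fully apart and lower. Of the 11240 tested genes, these numbers were 2454 (21.8%) and 3112 (27.7%). The members were drawn from a table in which 36.3% of tested genes were called, and no test of the list as a whole was made.

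**Figure D1:**
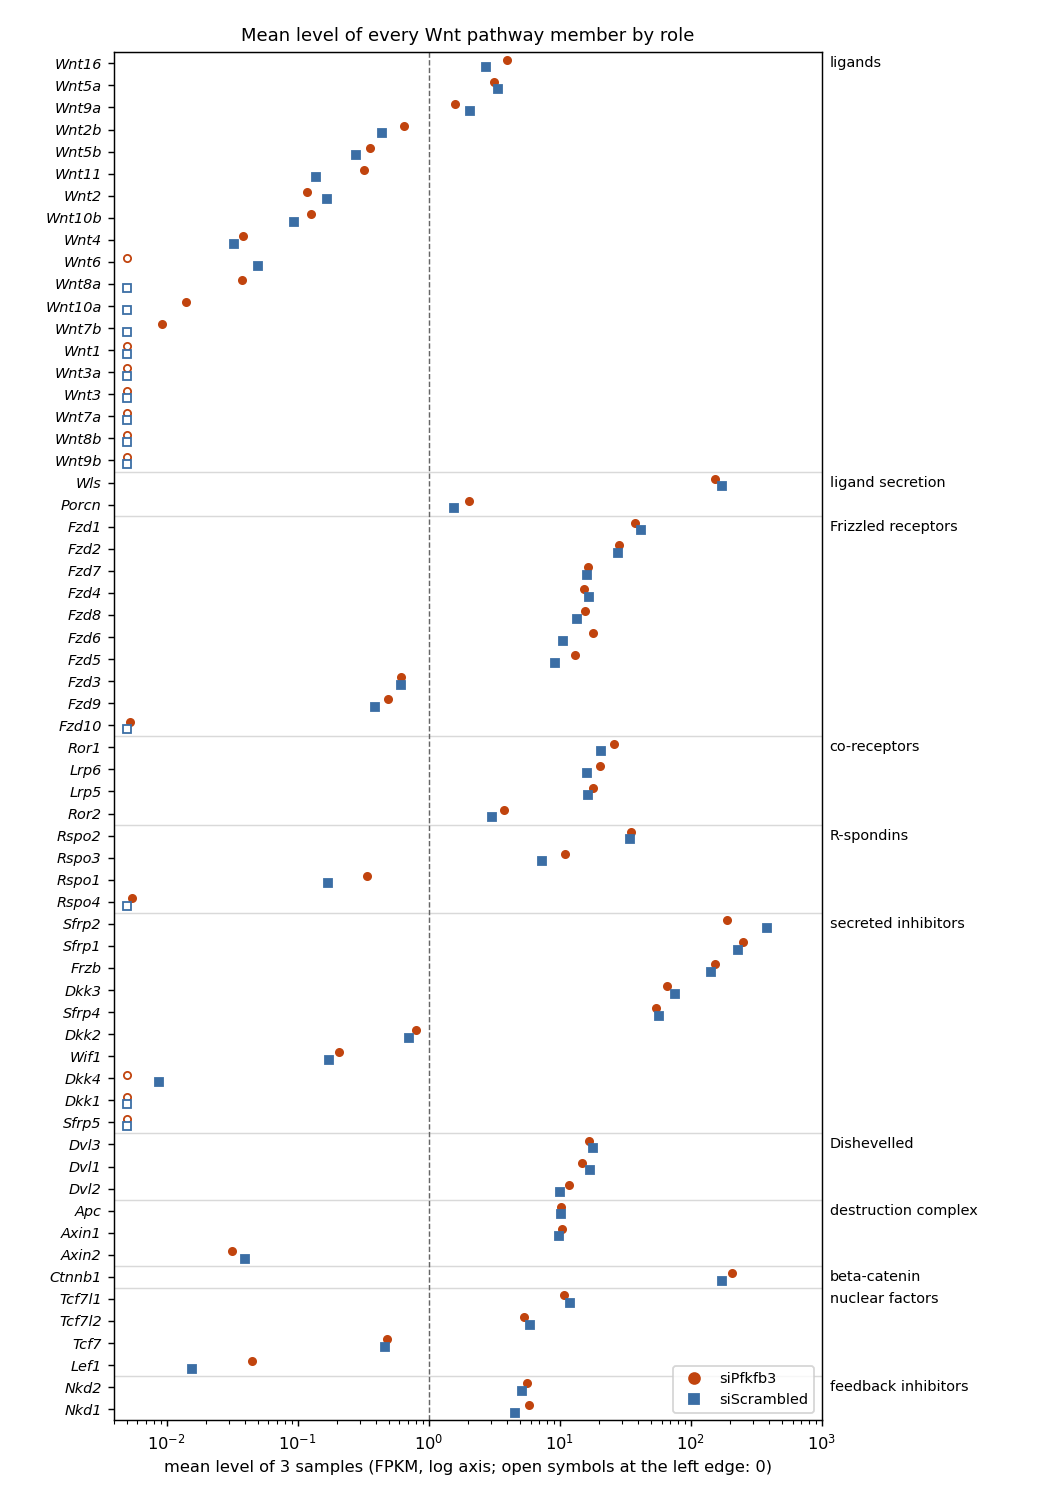
Mean level of each of the 62 members by role (x axis, FPKM on a log axis; circles siPfkfb3, squares siScrambled, each a mean of 3 samples; open symbols at the left edge are 0; dashed line 1 FPKM). The secreted inhibitors Sfrp2, Sfrp1 and Frzb, the carrier Wls and Ctnnb1 lie above 100 FPKM in both groups, while 16 of 19 ligands lie under the dashed line.

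Few ligands were present. Of 19 Wnt genes, 3 passed the filter, 6 (Wnt1, Wnt3, Wnt3a, Wnt7a, Wnt8b and Wnt9b) were listed at 0 in all 6 samples and the other 10 had means under 1 FPKM. Wnt16 (chromosome 6, 22288227 to 22298522, plus strand, ENSMUSG00000029671; GRCm38) had 3.73, 3.98 and 4.22 FPKM in siPfkfb3, against 2.47, 3.27 and 2.52 FPKM in siScrambled. Its groups did not overlap, and it rose (log2 fold change 0.41 ± 0.09 SE, adjusted p = 0.00735). Wnt5a, the best-studied ligand of the Ror receptors, had 3.24, 3.19 and 3.06 FPKM in siPfkfb3, against 3.27, 3.12 and 3.73 FPKM in siScrambled. Those values overlap, and the gene was not called (−0.07, adjusted p = 0.510). Wnt9a, a ligand known for its part in joint formation, had 1.74, 1.50 and 1.53 FPKM in siPfkfb3, against 1.98, 1.97 and 2.26 FPKM in siScrambled, with no overlap. It fell by a margin close to the threshold (log2 fold change −0.25 ± 0.08 SE, adjusted p = 0.0447).

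Wnt16 therefore had the highest mean of the ligands in siPfkfb3 and lay apart from Wnt5a there, while in siScrambled Wnt5a came first and its samples overlapped those of Wnt16. Within each library, which takes out any scaling between libraries, the ratio of Wnt16 to Wnt5a was 1.15, 1.25 and 1.38 in siPfkfb3 and 0.754, 1.05 and 0.676 in siScrambled. All 3 siPfkfb3 ratios were the higher ones. The summed level of the 19 ligands was 10.4, 10.4 and 10.4 in siPfkfb3 and 8.76, 9.57 and 9.89 in siScrambled (FPKM), a mean 110.5% of that in siScrambled, with no overlap. Of the 3 tested ligands only Wnt16 was called higher, with means of 3.97 FPKM in siPfkfb3 and 2.76 FPKM in siScrambled. The means of Wnt5a and Wnt9a were lower in siPfkfb3. Among the ligands under the filter, Wnt2b had 0.733, 0.696 and 0.508 FPKM in siPfkfb3, against 0.382, 0.467 and 0.481 FPKM in siScrambled, and Wnt11 had 0.440, 0.221 and 0.309 FPKM in siPfkfb3, against 0.118, 0.112 and 0.186 FPKM in siScrambled. These groups did not overlap in either gene. Wnt6 was listed at 0 in all 3 siPfkfb3 samples and at 0.0917, 0.0404 and 0.0186 FPKM in siScrambled. Of the 29 members under the filter, 8 were at 0 in all 6 samples and could not be fitted. None of the others was called when fitted without a filter.

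Secretion of Wnt proteins needs Porcn, which attaches the lipid, and Wls, which carries the protein to the cell surface. Wls was one of the most abundant members and had 156, 152 and 156 FPKM in siPfkfb3, against 169.7, 175 and 172 FPKM in siScrambled. It fell by a small step (log2 fold change −0.16 ± 0.03 SE, adjusted p = 0.00250), and the groups did not overlap. Porcn had 2.20, 2.20 and 1.73 FPKM in siPfkfb3, against 1.15, 1.98 and 1.54 FPKM in siScrambled, in groups that overlap, and was not called (0.26, adjusted p = 0.140). It was called only when siScrambled replicate 2 was left out (adjusted p = 0.0434).

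Of the 10 Frizzled receptors, 7 were tested, and 3 of these rose, 1 fell and 3 were not called. The rises and falls made up 42.9% and 14.3% of the tested receptors, against 15.8% and 20.5% of all tested genes. Fzd6 (chromosome 15, 39006034 to 39038188, plus strand, ENSMUSG00000022297), known from mice for its part in the orientation of hair, had 18.1, 18.7 and 17.4 FPKM in siPfkfb3, against 10.1, 11.3 and 10.4 FPKM in siScrambled. No siPfkfb3 sample came near the siScrambled samples (log2 fold change 0.72 ± 0.06 SE, adjusted p = 1.19e-05). Fzd5 (chromosome 1, 64730558 to 64737751, minus strand, ENSMUSG00000045005) had 12.2, 13.1 and 13.8 FPKM in siPfkfb3, against 9.16, 9.39 and 9.23 FPKM in siScrambled, again with no overlap. It rose (log2 fold change 0.45 ± 0.06 SE, adjusted p = 0.000211). Fzd8, a close relative of Fzd5, rose less, with 15.4, 15.2 and 16.0 FPKM in siPfkfb3, against 13.5, 13.5 and 14.1 FPKM in siScrambled (log2 fold change 0.17 ± 0.05 SE, adjusted p = 0.0183).

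Fzd1, the most abundant receptor, had 39.4, 36.2 and 37.7 FPKM in siPfkfb3, against 40.2, 43.7 and 42.2 FPKM in siScrambled. The siPfkfb3 samples were all lower, and the gene fell (log2 fold change −0.15 ± 0.05 SE, adjusted p = 0.0299). Fzd2 and Fzd7, of the same subfamily as Fzd1, were not called, at 28.5 ± 1.56 FPKM in siPfkfb3 and 28.1 ± 0.937 FPKM in siScrambled for Fzd2 and 16.5 ± 0.229 FPKM in siPfkfb3 and 16.1 ± 0.540 FPKM in siScrambled for Fzd7 (means ± SD, n = 3 each), with log2 fold changes of 0.02 and 0.03 (adjusted p = 0.826 and 0.594). Fzd4, which also binds norrin in the vessels of the retina, had 15.6, 14.8 and 15.6 FPKM in siPfkfb3, against 16.3, 17.5 and 16.5 FPKM in siScrambled. Its groups did not overlap, but it missed the threshold (−0.12, adjusted p = 0.0771). Fzd3, Fzd9 and Fzd10 were under the filter, each with a mean under 0.7 FPKM in both groups.

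The order of the receptors by level differed between the groups below Fzd1 and Fzd2. In siPfkfb3, Fzd6 came next and lay apart from Fzd7 after it, with Fzd8 and Fzd4 next, whose samples overlapped, and Fzd5 last. In siScrambled, Fzd4 and Fzd7 came next with overlapping samples, then Fzd8, Fzd6 and Fzd5, each apart from its neighbour. As a share of the summed Frizzled level within a library, Fzd6 made up 12.4, 13.1 and 11.7 in siPfkfb3 and 7.54, 8.03 and 7.50 in siScrambled (percent). The share of Fzd5 was 8.37, 9.18 and 9.29 in siPfkfb3 and 6.84, 6.69 and 6.66 in siScrambled, and that of Fzd1 was 26.9, 25.4 and 25.4 in siPfkfb3 and 30.0, 31.2 and 30.4 in siScrambled (percent). None of these 3 shares overlapped between the groups. The summed Frizzled level was 146, 143 and 148 in siPfkfb3 and 134, 140.2 and 139 in siScrambled (FPKM), with no overlap.

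**Figure D2:**
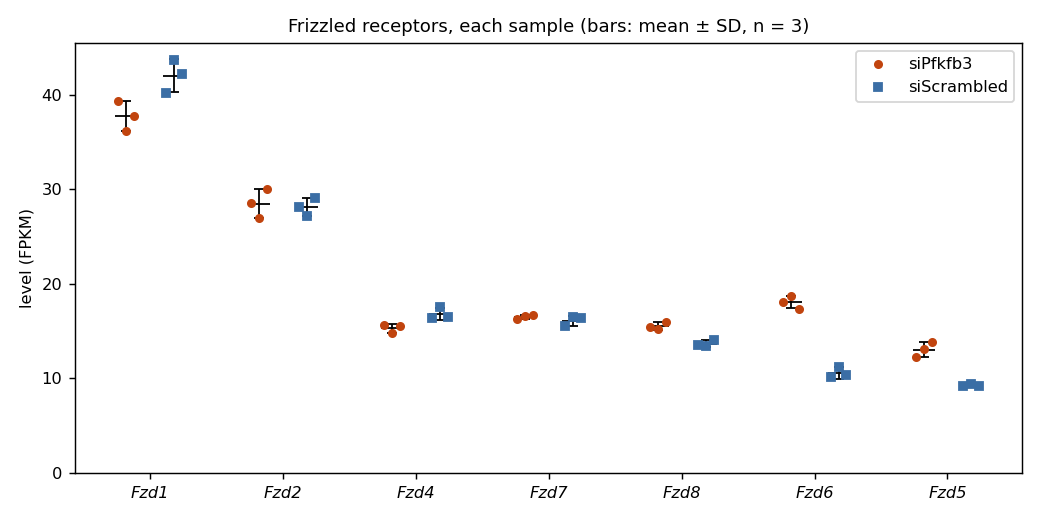
Level of the 7 tested Frizzled receptors in each sample (y axis, FPKM; circles siPfkfb3, squares siScrambled; horizontal marks and bars mean ± SD, n = 3). Fzd6 and Fzd5 are higher in all siPfkfb3 samples, Fzd1 is lower, and Fzd2 overlaps between the groups.

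All 4 co-receptors were tested, and 3 rose (75.0%, against 15.8% of all tested genes). Lrp6, which is phosphorylated when Wnt binds and then draws in Axin, had 20.8, 20.3 and 20.3 FPKM in siPfkfb3, against 16.1, 17.3 and 15.6 FPKM in siScrambled (log2 fold change 0.31 ± 0.05 SE, adjusted p = 0.00113). Its partner Lrp5 had 17.8, 18.4 and 17.8 FPKM in siPfkfb3, against 17.1, 15.5 and 16.5 FPKM in siScrambled. Neither gene overlapped between the groups, but Lrp5 missed the threshold (0.13, adjusted p = 0.0731) and passed it only under TPM and weighted TMM (adjusted p = 0.0441 and 0.0404). In siScrambled the samples of Lrp5 and Lrp6 overlapped, while in siPfkfb3 Lrp6 was the higher in each sample.

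Ror1, a receptor tyrosine kinase that binds Wnt5a and the most abundant co-receptor, had 25.5, 26.4 and 25.6 FPKM in siPfkfb3, against 21.0, 21.0 and 20.3 FPKM in siScrambled. The siPfkfb3 samples were all above the siScrambled samples (log2 fold change 0.30 ± 0.04 SE, adjusted p = 0.000413). Ror2, of the same family, was far lower, with 3.73, 4.13 and 3.51 FPKM in siPfkfb3, against 2.91, 3.18 and 3.07 FPKM in siScrambled, and also rose (log2 fold change 0.24 ± 0.08 SE, adjusted p = 0.0329). The Ror2 call ended when any 1 of 4 libraries was left out. The co-receptors summed to 67.8, 69.2 and 67.2 in siPfkfb3 and 57.1, 57.0 and 55.4 in siScrambled (FPKM), without overlap.

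R-spondins bind Lgr receptors and draw the ubiquitin ligases Znrf3 and Rnf43 away from Frizzled. Rspo3 (chromosome 10, 29452416 to 29535867, minus strand, ENSMUSG00000019880), which mouse embryos need to form blood vessels, had 10.4, 11.3 and 11.0 FPKM in siPfkfb3, against 6.57, 8.24 and 7.34 FPKM in siScrambled. Every siPfkfb3 sample was the higher (log2 fold change 0.51 ± 0.08 SE, adjusted p = 0.000701). Rspo2, the more abundant one, had 33.9, 35.0 and 35.8 FPKM in siPfkfb3, against 34.0, 35.5 and 33.8 FPKM in siScrambled. These groups overlapped, with no call (0.02, adjusted p = 0.751). The ratio of Rspo3 to Rspo2 within a library was 0.306, 0.324 and 0.308 in siPfkfb3 and 0.193, 0.232 and 0.217 in siScrambled. Rspo1 stood under the filter, at 0.225, 0.399 and 0.385 FPKM in siPfkfb3, against 0.151, 0.209 and 0.149 FPKM in siScrambled, and Rspo4 was at or near 0 in every sample.

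**Figure D3:**
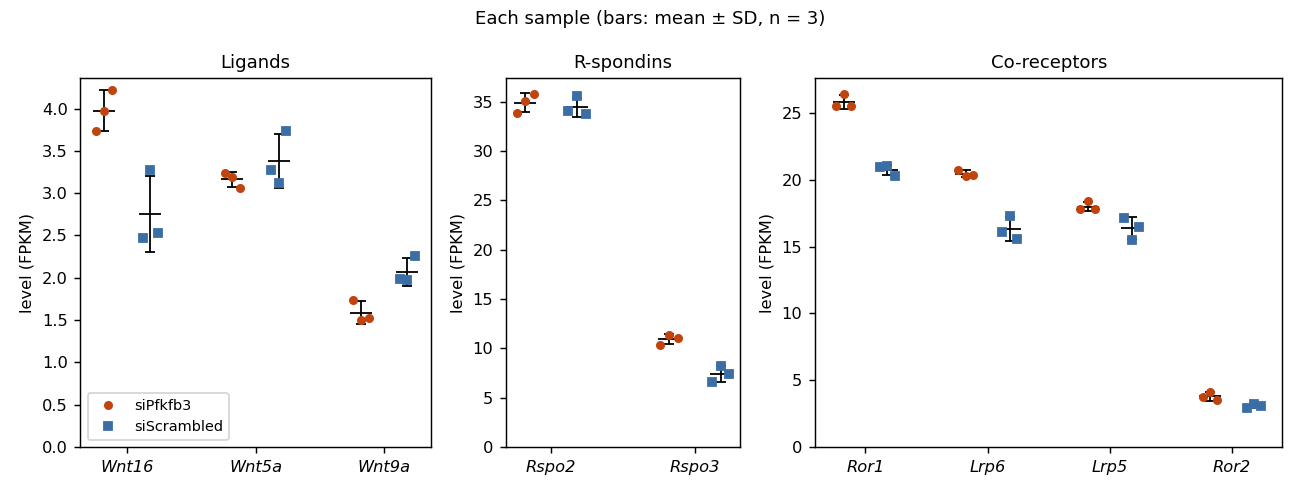
Level of the tested ligands, R-spondins and co-receptors in each sample (y axes, FPKM, a separate axis for each panel; circles siPfkfb3, squares siScrambled; horizontal marks and bars mean ± SD, n = 3). Wnt16, Rspo3, Ror1, Lrp6, Lrp5 and Ror2 are higher in every siPfkfb3 sample, Wnt9a is lower, and Wnt5a and Rspo2 overlap.

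The secreted inhibitors were the most abundant role. Of 10 members, 5 were tested, 2 rose, 2 fell and 1 was not called. The rises and falls made up 40.0% and 40.0% of the tested inhibitors, against 15.8% and 20.5% of all tested genes. Sfrp2 (chromosome 3, 83766321 to 83774316, plus strand, ENSMUSG00000027996), which carries a Wnt-binding domain like that of Frizzled, had 197, 189 and 186 FPKM in siPfkfb3, against 388, 403 and 359.7 FPKM in siScrambled. The highest siPfkfb3 sample was well under the lowest siScrambled sample (log2 fold change −1.0 ± 0.04 SE, adjusted p = 7.58e-07). Sfrp1, its close relative, moved the other way by a small step, with 252, 256 and 249.9 FPKM in siPfkfb3, against 228, 237 and 232 FPKM in siScrambled (log2 fold change 0.12 ± 0.03 SE, adjusted p = 0.00826). Frzb, also known as Sfrp3 and first studied in cartilage, had 147, 155 and 161 FPKM in siPfkfb3, against 143, 142 and 142 FPKM in siScrambled, without overlap (log2 fold change 0.12 ± 0.04 SE, adjusted p = 0.0301). Sfrp4 had 48.0, 63.6 and 51.0 FPKM in siPfkfb3, against 55.5, 53.8 and 62.5 FPKM in siScrambled. Its groups overlapped and it was not called (−0.08, adjusted p = 0.600), except when siPfkfb3 replicate 2, its highest sample, was left out (log2 fold change −0.20, adjusted p = 0.0488).

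Dkk3, a divergent Dickkopf that does not bind Lrp6 as the others do, had 65.3, 67.5 and 65.6 FPKM in siPfkfb3, against 74.0, 76.5 and 76.7 FPKM in siScrambled. It fell (log2 fold change −0.19 ± 0.03 SE, adjusted p = 0.00168), and its groups did not overlap. Dkk1, the classic Lrp antagonist, was listed at 0 in all 6 samples, as was Sfrp5. Dkk2, Dkk4 and Wif1 had means under 1 FPKM. The inhibitors thus ranked Sfrp1, Sfrp2, Frzb, Dkk3 and Sfrp4 by level in siPfkfb3 and Sfrp2, Sfrp1, Frzb, Dkk3 and Sfrp4 in siScrambled, with no overlap between neighbours in either order. The ratio of Sfrp2 to Sfrp1 within a library was 0.783, 0.738 and 0.744 in siPfkfb3 and 1.70, 1.71 and 1.55 in siScrambled. The top inhibitor was therefore Sfrp1 in each siPfkfb3 library and Sfrp2 in each siScrambled library. Sfrp2 made up 30.6, 28.5 and 28.7 in siPfkfb3 and 47.7, 48.3 and 45.2 in siScrambled (percent) of the summed Sfrp and Frzb level. That sum was 652 ± 10.2 in siPfkfb3 and 815 ± 19.8 in siScrambled (FPKM, mean ± SD, n = 3 each). Without Sfrp2 it was 462 ± 13.7 in siPfkfb3 and 431 ± 5.52 in siScrambled, so the lower total rested on Sfrp2.

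**Figure D4:**
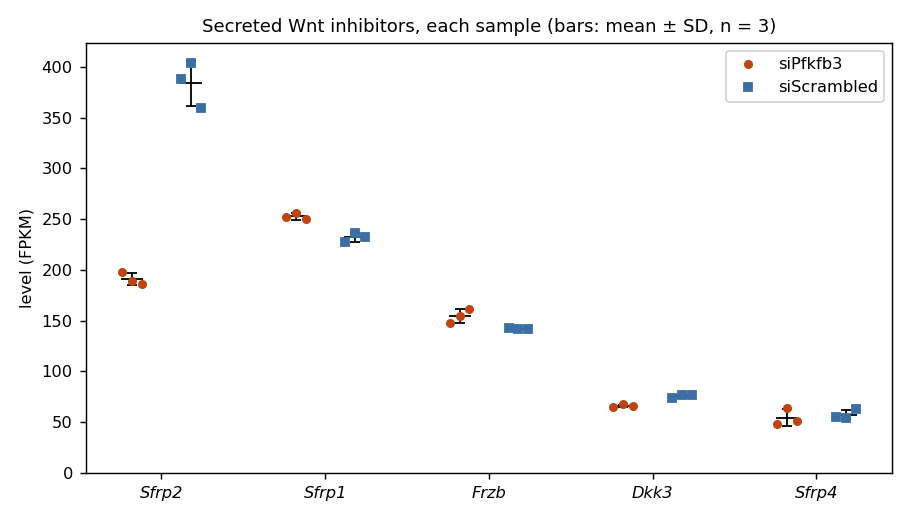
Level of the 5 tested secreted Wnt inhibitors in each sample (y axis, FPKM; circles siPfkfb3, squares siScrambled; horizontal marks and bars mean ± SD, n = 3). Sfrp2 averages 191 FPKM in siPfkfb3 and 384 FPKM in siScrambled, while the other 4 lie far closer together between the groups.

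Markers of adventitial fibroblasts, the connective tissue cells of the outer arterial wall, mostly moved in the same direction as Sfrp2. Of 12, all tested, 8 fell and 2 rose (66.7% and 16.7%, against 20.5% and 15.8% of all tested genes). Cd34 (−1.05), Clec3b (−0.92) and Dpt (−0.88) fell the furthest, while Col14a1 (0.36) and Pdgfra (0.14) rose. The calls of Pdgfra, Pi16 and Scara5 each ended without at least 1 library. The list summed to 1323 to 1353 FPKM in siPfkfb3 and 1420.0 to 1452 FPKM in siScrambled. In bulk RNA, fewer cells of a type and less RNA per cell cannot be told apart, and the part of these cells in the Sfrp2 result was not tested. Of 12 smooth muscle markers 5 were called higher and none lower (41.7% and 0%, against 15.8% and 20.5% of all tested genes). Synpo2, among the 5, lost its call without siPfkfb3 replicate 2 or siScrambled replicate 3. Myh11, Tagln, Smtn, Des and Myocd were not called but lay lower in every siPfkfb3 sample. Acta2, the smooth muscle actin, had 1700.0 ± 29.9 FPKM in siPfkfb3 and 1339.7 ± 39.0 FPKM in siScrambled (mean ± SD, n = 3 each) and Myh11, the smooth muscle myosin, 15.6 ± 0.359 FPKM in siPfkfb3 and 16.6 ± 0.108 FPKM in siScrambled. The summed level of the 12 was 2759.7 to 2839 FPKM in siPfkfb3 and 2418 to 2518 FPKM in siScrambled, while without Acta2 the other 11 summed to 1094, 1086 and 1120.3 in siPfkfb3 and 1140.3, 1119 and 1128 in siScrambled (FPKM), in groups that overlap. The median log2 fold change of the list was −0.01. Of 10 endothelial markers, 8 stayed under 1 FPKM in every sample, Pecam1 and Cdh5 among them. The 1 tested endothelial marker, Erg, rose (0.54). The list summed to 14.8 to 16.1 FPKM in siPfkfb3 and 10.6 to 10.9 FPKM in siScrambled. Most of that sum was Erg, with means of 13.8 FPKM in siPfkfb3 and 9.19 FPKM in siScrambled. Tek, under the filter, went the other way, at 0.431, 0.567 and 0.360 FPKM in siPfkfb3, against 0.974, 0.859 and 0.968 FPKM in siScrambled. Of 10 macrophage and leukocyte markers 3 were tested and none was called, with a sum of 16.3 to 17.2 FPKM in siPfkfb3 and 14.9 to 15.6 FPKM in siScrambled. Only 1 of 8 mesothelial markers was tested, Upk3b, which fell (−1.05); the list summed to 2.50 to 2.78 FPKM in siPfkfb3 and 6.31 to 7.40 FPKM in siScrambled. Of 10 cartilage markers, 4 stayed under 1 FPKM in every sample. Of the 6 tested, 5 rose (83.3%, against 15.8% of all tested genes), led by Col2a1 (1.48). Sox9 was not called (0.01, adjusted p = 0.916). Matn3 lost its call without siPfkfb3 replicate 1 or 2 or siScrambled replicate 1. The list summed to 215 to 244 FPKM in siPfkfb3 and 108 to 115 FPKM in siScrambled. Col2a1 alone had means of 158 FPKM in siPfkfb3 and 56.0 FPKM in siScrambled. The part of any of these cell types in the members' values was not tested.

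Upstream sequence is shown for the inhibitor that fell most, for the most changed Frizzled with an entry in the promoter table and for the steady receptor Fzd7 whose window holds a Tcf core. These are the bases before both the RefSeq and the GENCODE start, from RefSeq GRCm38.p6, 5′ to 3′ on the gene's strand. Capitals mark the core of the Tcf/Lef site (CTTTG followed by AT, AA, TT or TA, either strand) and the CCAAT box (either strand). The 3 genes were chosen after their values were seen, and CCAAT was added to the search after the sequences had been read.
Sfrp2, chr3:83766071-83766320, plus strand: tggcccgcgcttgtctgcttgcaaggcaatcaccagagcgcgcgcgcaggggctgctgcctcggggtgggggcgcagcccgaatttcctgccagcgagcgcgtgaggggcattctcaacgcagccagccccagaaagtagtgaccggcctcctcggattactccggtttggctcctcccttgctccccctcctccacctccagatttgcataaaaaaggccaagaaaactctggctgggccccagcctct
Fzd5, chr1:64737752-64738000, minus strand: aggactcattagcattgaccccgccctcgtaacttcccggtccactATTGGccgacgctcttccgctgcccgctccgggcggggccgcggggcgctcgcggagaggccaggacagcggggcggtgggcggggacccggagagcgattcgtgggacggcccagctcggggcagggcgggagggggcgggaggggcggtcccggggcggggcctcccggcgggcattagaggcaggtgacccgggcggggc
Fzd7, chr1:59481897-59482146, plus strand: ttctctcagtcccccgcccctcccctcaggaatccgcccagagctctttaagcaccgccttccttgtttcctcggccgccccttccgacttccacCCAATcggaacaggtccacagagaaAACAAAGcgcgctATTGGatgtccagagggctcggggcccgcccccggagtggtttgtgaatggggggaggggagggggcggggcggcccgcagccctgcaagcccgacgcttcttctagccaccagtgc

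The Sfrp2 stretch holds neither motif, and the Fzd5 stretch holds 1 CCAAT box. The Fzd7 stretch holds 2 CCAAT boxes and 1 Tcf/Lef core, at −130 to −124 from the RefSeq start. No search motif overlaps another in these stretches. Windows of 250 bases before to 50 after the start were found for 43 of the 62 members, counting every window of a gene. A Tcf/Lef core occurs in 7 of the 43 members (16.3%) and in 18.9% of 27025 genes with a window. A CCAAT box occurs in 16 of the 43 (37.2%) and in 41.1% of all these genes. The windows of the members hold a median of 26 CG dinucleotides, against 7 for all windows. A match is a description of letters only, and nothing was measured on these stretches.

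Among the members inside the cell, called changes ran from −0.18 to 0.30 on the log2 scale. Among the Dishevelled proteins, which carry the signal from Frizzled, Dvl2 rose and Dvl1 fell. Dvl2 had 12.8, 11.7 and 11.2 FPKM in siPfkfb3, against 10.1, 9.49 and 10.7 FPKM in siScrambled (log2 fold change 0.22 ± 0.06 SE, adjusted p = 0.0247). Dvl1 had 14.1, 15.3 and 15.4 FPKM in siPfkfb3, against 16.6, 16.6 and 17.7 FPKM in siScrambled (log2 fold change −0.18 ± 0.05 SE, adjusted p = 0.0265). Both genes had groups that did not overlap. Dvl3, the most abundant of them, had 17.8, 17.0 and 15.3 FPKM in siPfkfb3, against 19.4, 17.2 and 17.8 FPKM in siScrambled, in groups that overlap, with no call (−0.11, adjusted p = 0.210). The summed level of the family was 43.5 ± 1.46 in siPfkfb3 and 45.2 ± 1.65 in siScrambled (FPKM, mean ± SD, n = 3 each).

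The scaffolds of the destruction complex were not called. Apc had 10.6, 10.1 and 10.2 FPKM in siPfkfb3, against 9.78, 10.7 and 10.1 FPKM in siScrambled (0.01, adjusted p = 0.858). Axin1 had 10.5 ± 0.123 FPKM in siPfkfb3 and 9.85 ± 0.336 FPKM in siScrambled (mean ± SD, n = 3 each; 0.08, adjusted p = 0.251). Axin2, a scaffold that is also a widely used target of beta-catenin, was close to 0 in every sample, at 0.0350, 0.0362 and 0.0244 FPKM in siPfkfb3, against 0.0933, 0.0268 and 0 FPKM in siScrambled.

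Ctnnb1 (chromosome 9, 120929216 to 120960507, plus strand, ENSMUSG00000006932), which encodes beta-catenin, a nuclear partner of Tcf factors and a part of cell junctions, had 211, 204 and 207 FPKM in siPfkfb3, against 171, 176 and 169.7 FPKM in siScrambled. All siPfkfb3 samples were the higher (log2 fold change 0.27 ± 0.03 SE, adjusted p = 0.000126). No Tcf factor was called. Tcf7l1, mostly a repressor, had 10.8, 11.8 and 9.86 FPKM in siPfkfb3, against 13.4, 11.8 and 10.9 FPKM in siScrambled, with overlap (−0.14, adjusted p = 0.223). Tcf7l2 had 5.26, 5.13 and 5.55 FPKM in siPfkfb3, against 5.69, 6.22 and 5.83 FPKM in siScrambled, without overlap but not called (−0.13, adjusted p = 0.133). Tcf7 and Lef1 were under the filter, Tcf7 at 0.486 ± 0.105 FPKM in siPfkfb3 and 0.463 ± 0.0549 FPKM in siScrambled and Lef1 under 0.12 FPKM in each sample.

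Nkd1 and Nkd2 bind Dishevelled and restrain the pathway. Nkd1 had 6.36, 5.90 and 5.36 FPKM in siPfkfb3, against 4.39, 5.06 and 4.34 FPKM in siScrambled, without overlap, and rose (log2 fold change 0.30 ± 0.08 SE, adjusted p = 0.0160). Nkd2 had 5.85, 5.82 and 5.39 FPKM in siPfkfb3, against 4.96, 5.47 and 5.04 FPKM in siScrambled, with overlap, and was not called (0.12, adjusted p = 0.185). In siScrambled and in siPfkfb3 alike, the samples of Nkd1 and Nkd2 overlapped each other.

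**Figure D5:**
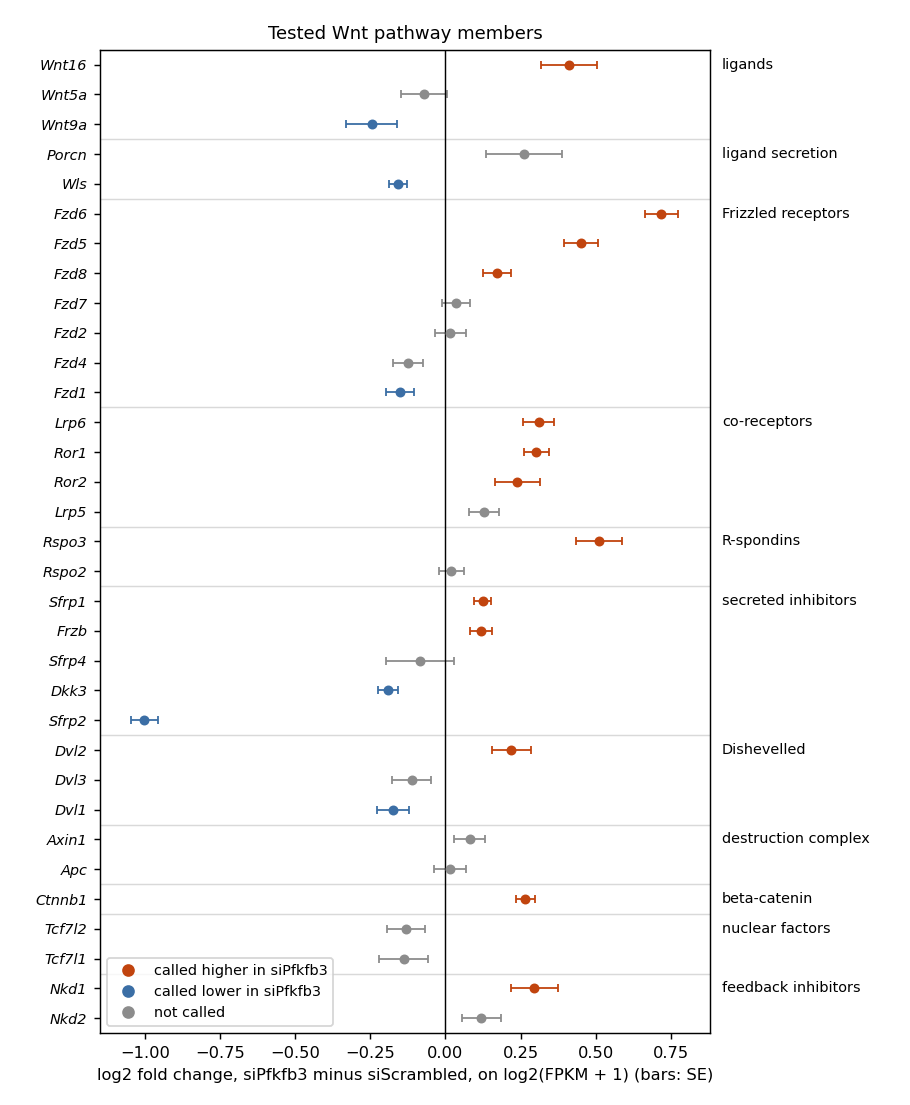
Log2 fold change of the 33 tested members, siPfkfb3 minus siScrambled on log2(FPKM + 1) (x axis; points are estimates, bars standard errors; colour gives the call at adjusted p under 0.05, 3 samples a group). Sfrp2 stands alone at −1.0, and the rises run up to 0.72 for Fzd6.

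Of the 19 calls, 11 held when each library was left out in turn: Sfrp2, Dkk3 and Wls lower, and Fzd6, Rspo3, Fzd5, Wnt16, Lrp6, Ror1, Ctnnb1 and Sfrp1 higher. The other 8 ended without at least 1 library. Wnt9a was not called without siPfkfb3 replicate 2 or 3 or any 1 siScrambled replicate (adjusted p of 0.0659 to 0.145), and Frzb without the same libraries (0.0644 to 0.121). Fzd1 lost its call without siPfkfb3 replicate 2 or 3 or siScrambled replicate 2 or 3 (0.0718 to 0.102). Ror2 lost it without siPfkfb3 replicate 1 or 2 or siScrambled replicate 1 or 3 (0.0665 to 0.109). For Dvl2 the libraries were siPfkfb3 replicate 1 and siScrambled replicates 1 and 2 (0.0617 to 0.0860), and for Nkd1 siPfkfb3 replicate 1 and siScrambled replicates 1 and 3 (0.0551 to 0.0608). Dvl1 was not called without siPfkfb3 replicate 1 or siScrambled replicate 3 (0.0928 and 0.0975), and Fzd8 not without siPfkfb3 replicate 3 or siScrambled replicate 1 (0.0693 and 0.0551). After rescaling to TPM, Wnt9a, Dvl1 and Fzd1 were not called (adjusted p = 0.0604, 0.0577 and 0.0576), and they were not called under weighted TMM either (0.0593, 0.0534 and 0.0575). Unweighted TMM ended the Wnt9a call alone of these (0.0543). With siPfkfb3 replicates 2 and 3 both left out, which leaves siPfkfb3 replicate 1 against 3 siScrambled samples and assumes that it varies like the others, 8 members were called higher and 2 lower, Sfrp2 among the lower ones.

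Exons of 9 tested members overlap those of another gene in GENCODE M21, and the sources used here do not say whether counting used strand, so reads of such pairs cannot be told apart. For Fzd5 the antisense Gm38058 covers 17.8% of its exon bases, and for Sfrp2 the antisense Gm26771 covers 16.1%. Dvl2 shares 18.3% with Acadvl, a gene of the opposite strand at 26.8 to 27.7 FPKM in siPfkfb3 and 25.6 to 29.0 FPKM in siScrambled. Ctnnb1 shares 14.6% with Ulk4, which stayed under 0.57 FPKM. The shares were 13.1% for Rspo3, 4.58% for Wnt5a, 4.56% for Tcf7l1, 3.15% for Fzd6 and 0.721% for Dvl1.

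Other genes of the pathway were read from 6 lists. Outside the member families, 0 of 9 tested agonists and antagonists rose and 1 fell (0% and 11.1%, against 15.8% and 20.5% of all tested genes). The gene that fell was Sdc4, a surface proteoglycan (−0.19, adjusted p = 0.00520). Of 4 tested genes of receptor turnover, 0 rose and 1 fell (0% and 25.0%, against the same 15.8% and 20.5%). Lgr5, a receptor of R-spondins, fell, with 1.80, 2.14 and 1.78 FPKM in siPfkfb3, against 3.33, 3.47 and 3.34 FPKM in siScrambled (−0.59, adjusted p = 0.000326). Its relatives Lgr4 and Lgr6 were not called (−0.01 and −0.04; adjusted p = 0.928 and 0.753). Rnf43 was listed at 0 in all samples.

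Among 21 tested kinases and other partners of the destruction complex, 2 rose and 4 fell (9.52% and 19.0%, against 15.8% and 20.5% of all tested genes). Csnk1e, a kinase of Dishevelled, had 11.7, 11.3 and 11.7 FPKM in siPfkfb3, against 18.0, 19.0 and 18.9 FPKM in siScrambled (−0.64, adjusted p = 8.71e-06). Csnk1g3, of a family that phosphorylates Lrp6, rose (0.32, adjusted p = 0.00253). Ppp2ca, the catalytic subunit of a phosphatase, and Tnks, a tankyrase that marks Axin for degradation, fell (−0.21 and −0.21; adjusted p = 0.00474 and 0.00543). The other gene that rose was Tnks2, the relative of Tnks, with 31.5, 29.7 and 30.3 FPKM in siPfkfb3, against 25.6, 29.0 and 27.3 FPKM in siScrambled (0.15, adjusted p = 0.0422), named after its values were seen. Its call ended without any 1 library other than siScrambled replicate 2. The kinases Gsk3a and Gsk3b, which mark beta-catenin for degradation, were not called (−0.05 and −0.13; adjusted p = 0.465 and 0.143); they are named after their values were seen.

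Of 20 tested nuclear partners of beta-catenin, 4 rose and 4 fell (20.0% and 20.0%, against 15.8% and 20.5% of all tested genes). Ctnnbip1, which blocks the binding of beta-catenin to Tcf, had 8.68, 7.53 and 8.90 FPKM in siPfkfb3, against 5.61, 4.77 and 5.78 FPKM in siScrambled (0.55, adjusted p = 0.000729). The co-activator Bcl9 rose (0.39, adjusted p = 0.00106) and its relative Bcl9l fell (−0.35, adjusted p = 0.000178). Aes, a short relative of the Groucho co-repressors, fell (−0.37, adjusted p = 3.15e-05). Of 25 tested genes of planar polarity and other branches without beta-catenin, 4 rose and 6 fell (16.0% and 24.0%, near the shares of all tested genes). Vangl2, of the polarity core, rose (0.47, adjusted p = 0.00401) and its relative Vangl1 fell (−0.39, adjusted p = 0.00210). The kinase Mapk9 fell (−0.47, adjusted p = 0.000181). With siPfkfb3 replicates 2 and 3 both left out, Sdc4, Ppp2ca, Tnks and Vangl2 were not called.

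Reported targets of beta-catenin went both ways. Of 28 tested, members included, 6 rose and 9 fell (21.4% and 32.1%, against 15.8% and 20.5% of all tested genes), with a median log2 fold change of 0.02. Ccnd1, the cyclin of entry into the cell cycle, had 78.4, 79.6 and 75.5 FPKM in siPfkfb3, against 156, 162 and 154 FPKM in siScrambled (−1.01, adjusted p = 2.57e-07). Tnfrsf11b, the decoy receptor osteoprotegerin, had 232, 242 and 233 FPKM in siPfkfb3, against 115, 119.8 and 122 FPKM in siScrambled (0.98, adjusted p = 2.57e-07). Neither gene overlapped between the groups, and each also has other known regulators. Sfrp2 and Lgr5, described above, were the other 2 of the 4 largest changes. Of the 41 targets with a row, 12 stayed under 1 FPKM in every sample, Axin2, Lef1, Notum, Dkk1 and Sp5 among them, so these could not be read either way.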

How the data were processed

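The authors deposited 1 table of FPKM (a level per gene length and library size, per the file header) with 1 column per sample. The submitters' processing notes name HISAT2 and GRCm38/mm10. For the aligner's version, the counting tool, strand use and the annotation, the entry is: not given in the sources used here. No counts or depths are given, so counting intervals could not be computed. Of 24970 rows, 22036 are Ensembl genes, of which 22022 matched a symbol.

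The members and gene lists were chosen with earlier results of these data known. Genes whose mean reached 1 FPKM were tested on log2(FPKM + 1), pseudocount 1, with limma 3.58.1 in R 4.3.3 (intensity trend, robust fit, two-sided, Benjamini-Hochberg over 11240 genes). Adjusted p-values come from it except where a setting is named. Members called with an absolute log2 fold change of at least 0.3, and the highest in each role, are given by sample, as are others where space allows; from each list, up to 4 called genes with the largest change, or the 2 highest where none is called. A gene that this takes from the planar polarity list is not reported here. In a check on drawn data of 11240 genes, 91 of 100 changes of 0.3 and 100 of 100 of 0.6 (log2) were recovered, with 9 of 200 calls false. The drawn genes took their spread from a smooth trend with level, and far fewer genes changed than were called in the real data. The check therefore does not give the recovery in these data. Alternatives were other pseudocounts, filters and scalings (TPM, TMM, quantile), a plain limma fit, the replicate block and leaving out libraries. TMM was run with ratios weighted as for counts and, because FPKM are not counts, without weights. The unweighted form was added after the weighted result was seen, so both are given. Positions are from GENCODE M21. Python 3.11.15 and pandas 2.3.3 were used, with matplotlib 3.10.9 for figures.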

Additional observations from a re-analysis of the deposited data

How the results depend on the processing

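Under the 18 alternatives run, no called member changed direction. Nor did the called genes named from the pathway lists under the 4 compared for them here (TPM, weighted TMM, quantile and the replicate block). Other runs of these list genes, such as leaving out libraries, are not counted in the values that follow. The alternatives gave 653 values for 49 gene results, members not called included. Of these values, 594 kept their side of the threshold, 55 lost a call and 4 gained one. Direction could change in members not called, such as Fzd2 (0.02, but −0.02 without siPfkfb3 replicate 3). Pseudocounts of 0.1 and 0.5 and filters of 0.3 and 5 FPKM ended no call of a member tested in them. Members called higher numbered 13 in the fit described and 8 to 12 when 1 library was left out. Those called lower numbered 6, and 3 to 5 with 1 library left out; without siScrambled replicate 1 there were 8 higher and without siScrambled replicate 3 there were 3 lower. TPM rescaling left 3 lower, and so did weighted TMM. Unweighted TMM, chosen after seeing the data, left 5. Without siPfkfb3 replicates 2 and 3, 8 members were called higher and 2 lower, and of all tested genes 2136 were called, 926 higher and 1210 lower, against 4079, 1775 and 2304; this fit has 1 siPfkfb3 sample. With no filter on low values 10 members were called higher and 4 lower. Sfrp1 was not called by limma without trend and robust fit (adjusted p = 0.0577), nor were Frzb (0.0994) and Fzd1 (0.0667). The deviations of samples that share a replicate number were weakly correlated (−0.11, 0.06 and 0.05), and those of other pairs ran from −0.16 to 0.12. With 3 samples a group, these values cannot decide whether the numbers pair the samples. The replicate block called 3907 genes, 13 members higher and 4 lower. Wnt9a and Fzd1 lost their calls in it (adjusted p = 0.0700 and 0.0556). The cause of these differences was not tested. Without read numbers, levels under about 1 FPKM could not be given an error beyond the spread of 3 samples.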
